A study of Rattus norvegicus with 21 samples.

Results

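The genes described here code for subunits of the 5 complexes of oxidative phosphorylation, with the assembly factors and regulators that carry the same name stems. They were taken from the array's annotation as every probe whose symbol starts with Nduf, Sdha to Sdhd, Uqcr, Cox4 to Cox8 or Atp5. That rule gave 71 probes for 71 genes, of 13793 annotated probes in all. By role, 61 genes were subunits, 30 of complex I, 4 of complex II, 4 of complex III, 10 of complex IV and 13 of complex V, and 10 were assembly factors or regulators. Total RNA was taken from the dentate gyrus in hippocampal slices of Wistar rats, all of which had been made epileptic with pilocarpine, a drug that activates muscarinic receptors. Recordings in the slice had marked each area as FR, where it produced the brief and very fast field oscillations called fast ripples, or as nonFR, where it did not. The arrays measured 10 FR and 11 nonFR areas in 11 slices, and 10 slices gave both areas. The 6 rats carry the names B1, B3, B9, B10, B13 and P91. No rat without pilocarpine was among the samples, so every value compares areas of epileptic tissue, and the labels give no age, sex or chip.

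Oxidative phosphorylation is the set of inner mitochondrial membrane complexes that pass electrons from NADH and succinate to oxygen and use the resulting proton gradient to make ATP. Complex I (NADH dehydrogenase) and complex II (succinate dehydrogenase) feed electrons in, complex III (the cytochrome bc1 complex) passes them to cytochrome c, complex IV (cytochrome c oxidase) hands them to oxygen, and complex V (ATP synthase) makes the ATP. Neurons depend heavily on this pathway to pay for ion pumping after firing. All complexes except complex II also hold subunits coded by mitochondrial DNA, and the genes below are the nuclear ones.

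The promoters are shown first, because the transcription factors NRF1, GABP (an ETS factor) and YY1 are known regulators of nuclear respiratory genes. RefSeq promoters of assembly GRCr8, from 250 bases before to 50 after the gene start, were matched by symbol for 62 of the 71 genes. The motifs searched, on both strands, were the NRF1 motif GCGCANGCG (where N is any base), the ETS motif CCGGAAG and the YY1 motif AAGATGGCG. None of these motifs contains another, although NRF1 matches on opposite strands can overlap, and each promoter was counted once for a motif. The NRF1 motif was in 19 of the 62 promoters (30.6%), against 5.80% of all 33469 promoters of that length, the ETS motif in 19 (30.6%), against 8.75%, and the YY1 motif in 6 (9.68%), against 1.73%. Only 55 of the 62 belong to genes that passed the detection filter, and these are set beside the 5257 matched promoters of other tested genes. There the NRF1 motif was in 17 (30.9%), against 13.5%, the ETS motif in 18 (32.7%), against 18.5%, and the YY1 motif in 5 (9.09%), against 3.77%. By complex, the NRF1 motif was in 6 of 12 promoters of complex V and in 0 of 8 of complex IV, where the ETS motif was in 3. The 100 bases before the gene start are printed for 6 genes to which the results return. Cox5b and Cox8a were higher in FR areas in the means of all 6 rats, though not in every slice. Ndufb7 had the lowest p for FR against nonFR, and Ndufa11, Uqcrc1 and Ndufaf5 differed among rats. Capitals mark the motifs, and each sequence reads 5′ to 3′ on the gene's own strand.
Cox5b, chr9:46417737-46417836, plus strand, 1 ETS motif: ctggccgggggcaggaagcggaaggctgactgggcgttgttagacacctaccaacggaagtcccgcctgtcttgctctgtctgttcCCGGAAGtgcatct
Cox8a, chr1:213833624-213833723, minus strand, 2 ETS motifs in reverse: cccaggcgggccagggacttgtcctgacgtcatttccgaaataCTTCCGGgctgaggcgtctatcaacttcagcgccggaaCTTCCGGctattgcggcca
Ndufb7, chr19:41477292-41477391, minus strand, 1 ETS motif: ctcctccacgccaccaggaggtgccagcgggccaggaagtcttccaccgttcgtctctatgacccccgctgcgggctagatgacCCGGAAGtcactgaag
Ndufa11, chr9:1637514-1637613, plus strand, overlapping NRF1 motifs: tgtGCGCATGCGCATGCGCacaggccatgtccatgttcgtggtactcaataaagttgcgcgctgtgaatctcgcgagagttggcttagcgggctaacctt
Uqcrc1, chr8:118468123-118468222, plus strand, 2 NRF1 motifs, the first in reverse: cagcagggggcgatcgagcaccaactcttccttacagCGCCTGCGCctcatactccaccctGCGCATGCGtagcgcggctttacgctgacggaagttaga
Ndufaf5, chr3:147961512-147961611, plus strand, overlapping NRF1 motifs: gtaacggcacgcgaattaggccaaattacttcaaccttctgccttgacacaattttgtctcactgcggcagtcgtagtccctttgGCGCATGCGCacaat
A match is a description of these letters and says nothing about whether a factor was bound.

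Arrays differed in brightness. Mean probe signal ran from 101.3 to 369.8 on FR arrays (median 164.4) and from 84.2 to 310.9 on nonFR arrays (median 257.0). The dimmest array was the nonFR area of the second slice of B10, with 5648 probes detected at a detection p below 0.01. Of the 71 genes, 59 to 64 were detected on each FR array and 59 to 66 on each nonFR array. Levels below are log2 signals after background correction and quantile normalization, and genes detected on at least 10 arrays were tested, 62 of the 71 and 8211 features in all. The granule cell markers Calb1 and C1ql2 were detected on all 21 arrays and Prox1 on 15, while the choroid plexus markers Ttr, Folr1, Kl and Aqp1 were detected on 1, 0, 0 and 7. Since the areas are bulk tissue, fewer cells of a type and less RNA per cell cannot be told apart.

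No oxidative phosphorylation gene passed the test between FR and nonFR areas, and most of their fitted differences lay above 0. Of 52 tested subunits, 43 had a fitted difference above 0 (FR minus nonFR), with a median of 0.085 on the log2 scale, and 52.3% of all tested features were above 0, with a median of 0.0037. Limma with the rat as a block called 0 of the 62 genes at an adjusted p below 0.05, and 0% of all features. At an unadjusted p below 0.05 it called 0 of the 62 and 0.353% of all features, and the smallest p among the genes was 0.144 (Ndufb7), with an adjusted p of 0.9999. The 95% interval of the difference lay within 0.5 log2 of 0 for 38 of the 62 genes and within 1 for 60 (a fold of 2). Of all 8211 features, 5386 had intervals within 0.5 and 7916 within 1, so these counts are not particular to the pathway. When arrays were weighted by how well they fitted the model, 17 of 52 subunits were above 0 with a median of -0.052, and without the dimmest array 37 were above 0 with a median of 0.037.

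**Figure D1:**
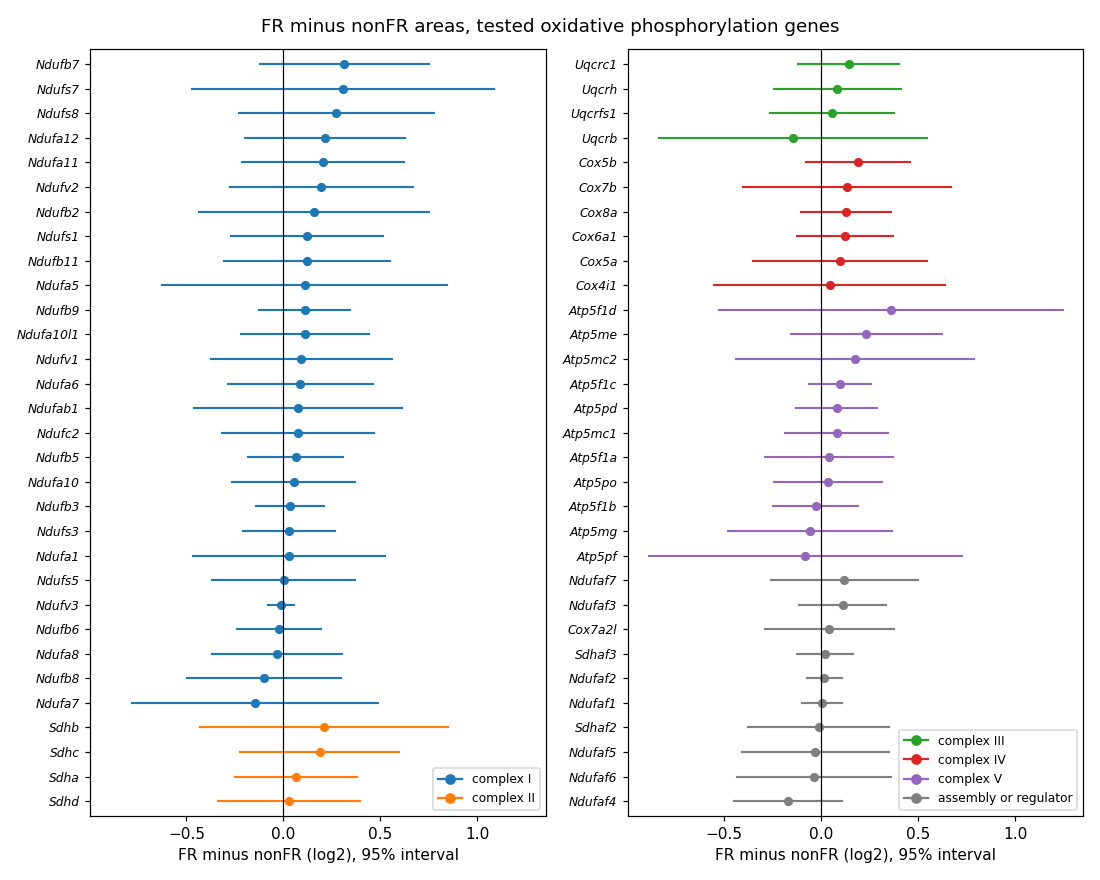
Fitted FR minus nonFR difference (log2, x axis) with its 95% interval for each of the 62 tested genes, coloured by complex. The points lie mostly right of 0, and every interval includes 0.

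In complex I, 22 of 27 tested subunits had differences above 0 and the median was 0.088. Without the dimmest array these were 18 of 27 and 0.032. All 6 of its tested core subunits, most of which carry the flavin or iron-sulfur clusters, were above 0 (median 0.16). Of 21 accessory subunits 16 were above 0 (median 0.074), and the contrast between core and accessory subunits was not tested. The core median was above 0 in 5 of 10 slices, at 1.59 in the second slice of B10 and at most 0.45 in any other. Ndufb7, an accessory subunit of the membrane arm, ranged in FR areas from 8.09 through a median of 9.07 to 10.02, and in nonFR areas from 8.13 through 8.58 to 9.69. The groups overlapped over nearly their whole range. Its fitted difference was 0.31 ± 0.20 (SE), a fold of 1.24, and it was higher in 5 of 6 rats. In single slices the difference of Ndufb7 ran from -0.30 in the first slice of B9 to 1.80 in the second slice of B10. Its fitted difference was 0.22 without the dimmest array and -0.026 with array weights. Ndufs8, an iron-sulfur subunit of the peripheral arm, ran from 7.24 through 8.51 to 9.18 in FR and from 7.26 through 7.90 to 9.11 in nonFR areas, with a difference of 0.27 ± 0.24 and p = 0.267. Without the dimmest array the difference of Ndufs8 was 0.11. Ndufs7, its neighbour in the electron path, had a similar difference of 0.31 ± 0.37, but its level was 10.33 in the FR area of the second slice of B10 and at most 8.79 on any nonFR array. Ndufa12, an accessory subunit of the peripheral arm, differed by 0.21 ± 0.19 (p = 0.284). The subunits at the entry of electrons gave 0.12 ± 0.18 for Ndufs1 (p = 0.517), the largest iron-sulfur subunit, and 0.09 ± 0.22 for Ndufv1 (p = 0.68), which binds NADH. Below 0 lay Ndufa7, Ndufb8, Ndufa8, Ndufb6 and Ndufv3, from -0.15 to -0.01.

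In complex II all 4 subunits were above 0, with a median of 0.13. Without the dimmest array 3 were above 0 with a median of 0.051, and without P91 2 with a median of 0.067. Sdhb, the iron-sulfur subunit, ranged from 7.90 through 9.08 to 10.33 in FR areas and from 6.92 through 8.90 to 10.33 in nonFR areas, and differed by 0.21 ± 0.30 (p = 0.495). Sdhc, a membrane anchor, ran from 10.29 through 10.89 to 11.54 in FR and from 8.98 through 11.02 to 11.31 in nonFR areas. Its FR median was the lower one while its fitted difference was 0.19 ± 0.19 (p = 0.347), and its lowest value came from the nonFR area of the second slice of B10, without which the difference was 0.030. Sdha, the flavoprotein, differed by 0.06 ± 0.15 and Sdhd, the other anchor, by 0.03 ± 0.17.

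Complex III had 3 of 4 subunits above 0 and a median of 0.069, which became 0.036 without the dimmest array and -0.026 without P91. Uqcrc1, a core protein of the matrix side, ranged from 10.94 through 11.40 to 12.63 in FR areas and from 10.93 through 11.52 to 11.84 in nonFR areas, with a difference of 0.14 ± 0.12 (p = 0.271) and a higher FR level in 5 of 6 rats. Its highest value, 12.63, was 1 FR area of B9. Uqcrh, the hinge protein that contacts cytochrome c1, differed by 0.08 ± 0.15, and Uqcrfs1, the Rieske iron-sulfur protein, by 0.06 ± 0.15. Uqcrb, which lies near the quinone site, was the exception at -0.15 ± 0.33 (p = 0.66), and its levels spread from 9.24 to 11.43 in FR and from 8.52 to 11.30 in nonFR areas.

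All 6 tested subunits of complex IV were above 0, with a median of 0.12 (5 and 0.10 without the dimmest array). These are the nuclear-coded subunits that surround the mitochondrially coded catalytic core. Cox5b ranged from 10.19 through 10.76 to 11.45 in FR areas and from 10.06 through 10.59 to 11.34 in nonFR areas, and its difference was 0.19 ± 0.13 (p = 0.149). Cox8a ranged from 10.82 through 11.14 to 11.52 in FR and from 10.66 through 10.99 to 11.36 in nonFR areas, and its difference was 0.13 ± 0.11 (p = 0.258). Both were higher in FR areas in the means of 6 of 6 rats, as 0.645% of all features were, and no other tested gene of the pathway was. None was lower in all 6, against 0.633% of all features. In single slices the directions were mixed. Cox8a was lower in the FR area by 0.30 in the first slice of B3, 0.23 in the second slice of B10 and 0.066 in slice S3 of P91, and its mean in B3 was 0.0028. The FR level of Cox5b was 10.71 and its nonFR level 11.31 in the first slice of B10, and 11.43 and 10.51 in the second. Its FR minus nonFR difference was also below 0 in slice S3 of P91 (-0.15) and the first slice of B3 (-0.091). In the first slice of B9 it was 0, and in the remaining slices it was above 0. Cox6a1 differed by 0.12 ± 0.12 (p = 0.315), and B1, with 1.04, lay far above the other rats. Cox5a (0.10 ± 0.21) and Cox4i1 (0.04 ± 0.28) had wider errors, and B13 stood apart in Cox4i1, whose level was 8.56 in its FR and 10.46 in its nonFR area.

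**Figure D2:**
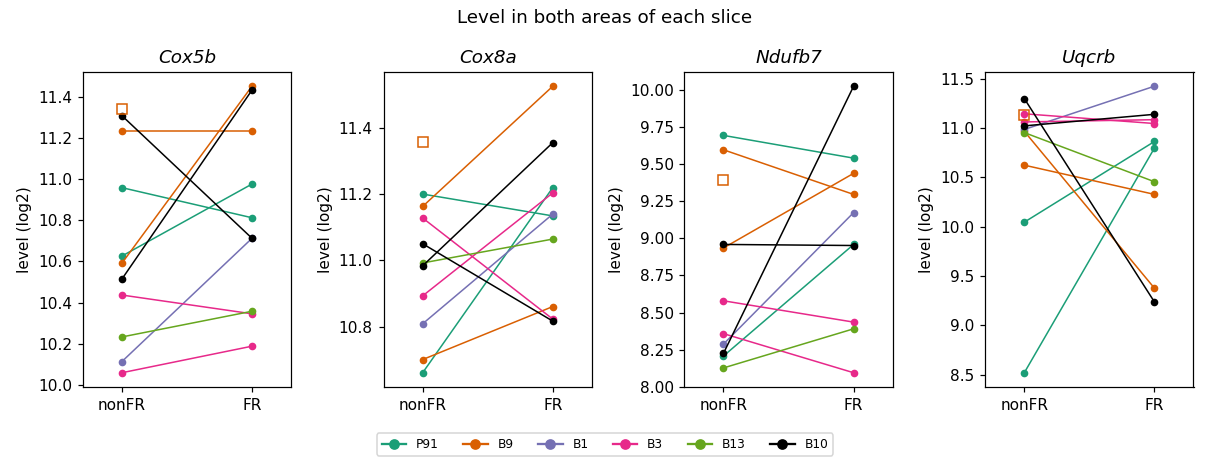
Level (log2, y axis) in the nonFR and FR area of each slice for Cox5b, Cox8a, Ndufb7 and Uqcrb, with 1 line for each of the 10 slices that gave both areas and an open square for the slice of B9 with a nonFR area only. Lines of one rat (one colour) often cross, and Uqcrb is higher in the FR area in both slices of P91 and lower in both slices of B9.

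Complex V had 8 of 11 subunits above 0 and a median of 0.079, which became 0.021 without the dimmest array. In the F1 head, which makes the ATP, Atp5f1c (the central shaft) ranged from 11.75 through 11.93 to 12.30 in FR areas and from 11.61 through 11.89 to 12.17 in nonFR areas, a difference of 0.10 ± 0.07 (p = 0.21). The subunits that form the catalytic ring were close to 0, with 0.04 ± 0.15 for Atp5f1a and -0.03 ± 0.10 for Atp5f1b. Atp5f1d, at the foot of the shaft, had the largest difference of all 62 genes, 0.36, and one of the largest errors, 0.42. Its level was 6.84 in the nonFR area of the second slice of B10 and 7.50 in the nonFR area of B13, and its FR levels ran from 8.95 to 11.68. Without that area of B10 its difference was 0.017. Atp5me, a small membrane subunit, differed by 0.23 ± 0.18 (p = 0.223). The c ring genes Atp5mc1 and Atp5mc2, which code for the same mature subunit, differed by 0.08 ± 0.13 and 0.18 ± 0.29. The peripheral stalk, which holds the head still, had 2 of 3 genes above 0 and a median of 0.034.

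Of the 10 assembly factors and regulators 6 were above 0, with a median of 0.0090. Ndufaf4, a complex I assembly factor, had the lowest p among them (0.21), with a difference of -0.17 ± 0.13 and levels from 5.88 to 6.99 in FR and from 6.10 to 7.23 in nonFR areas. Cox7a2l, which helps respiratory supercomplexes form, differed by 0.04 ± 0.16. Whether these genes differ from the subunits was not tested.

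**Figure D3:**
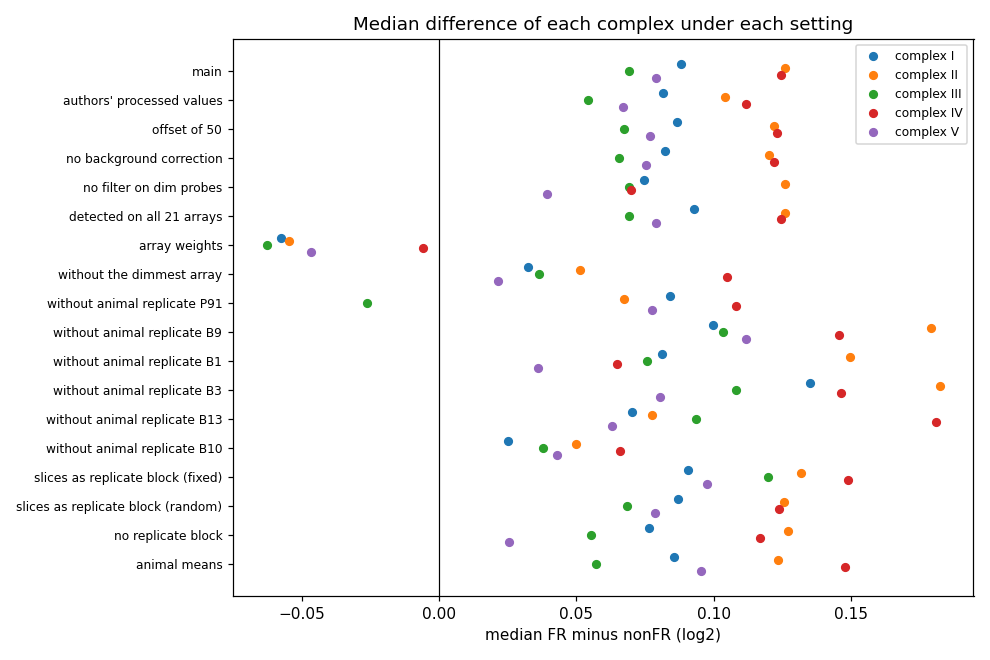
Median FR minus nonFR difference (log2, x axis) over the tested genes of each complex under the reported setting (top) and each alternative. The medians lie above 0 in all settings but array weights, where all 5 lie below, and complex III without P91 (-0.026).

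The subunits lay above 0 in some slices and below in others. The median over the 52 subunits was 0.50 in the second slice of B10, 0.27 in B1, 0.18 and 0.074 in the slices of P91, 0.072 and -0.14 in those of B9, 0.059 in the first slice of B10, -0.00041 in B13, and -0.095 and -0.075 in those of B3. It was above 0 in 6 of 10 slices. In the second slice of B10 all 5 complexes were above 0 and 39 of 52 subunits (75%) were, against 54.0% of all features, and the complex I core stood at 1.59, the c ring at 1.29 and the F1 head at 1.03. Both arrays of that slice were dim (mean signals 84.2 and 101.3) and took the lowest array weights (0.27 and 0.30). In the first slice of B3 none of the complexes was above 0, and 16 of 52 subunits were. Averaged by rat, the subunit medians were 0.14 for P91, -0.062 for B9, 0.27 for B1, -0.10 for B3, -0.00041 for B13 and 0.33 for B10, with an SD of 0.18 over the 6 rats. The number of subunits above 0 in a rat ran from 15 of 52 in B3, where 49.0% of all features were above 0, to 46 in B10, where 52.9% were. Leaving out each rat in turn moved the fitted median between 0.039 (without B10) and 0.13 (without B3).

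**Figure D4:**
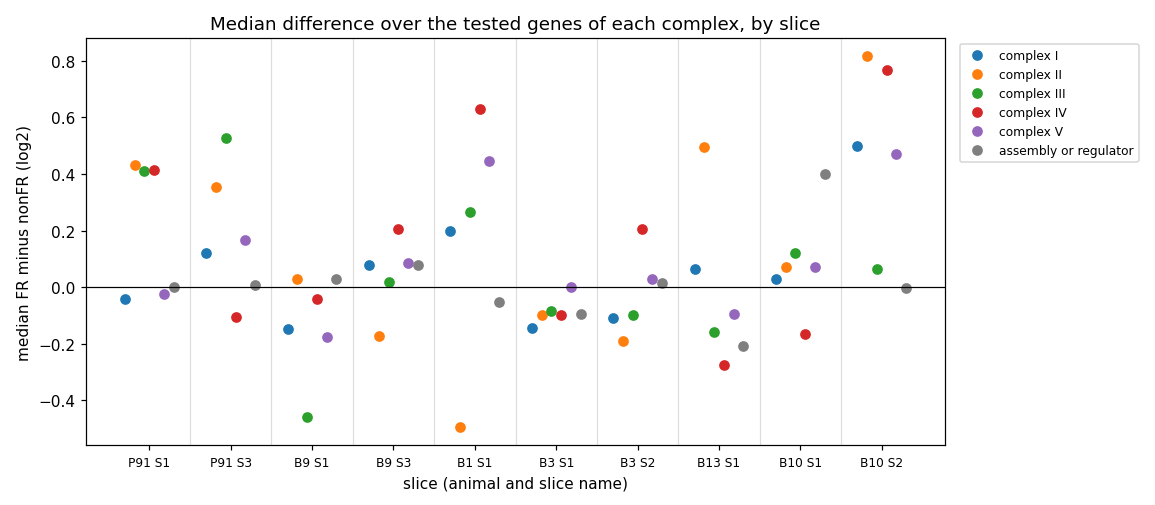
Median FR minus nonFR difference (log2, y axis) over the tested genes of each complex in each of the 10 slices with both areas. All 5 complexes lie above 0 in the second slice of B10. The first slice of B3 has 4 below 0 and complex V at 0, and in every other slice the complexes are split. In B1 complex II lies below 0 and the other complexes above.

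Some of the genes differed among rats. A moderated F test among the 6 rats called 9 of the 62 genes at an adjusted p below 0.05, against 13.4% of all features, a share (14.5%) near the background. The assembly factor Ndufaf5, which hydroxylates an arginine of Ndufs7, had the lowest adjusted p (0.00625), with rat means from 6.48 in P91 through 6.72 in B1, 6.97 in B9, 7.35 in B3 and 7.86 in B13 to 8.38 in B10. All 4 areas of P91 lay below every area of B3, B13 and B10. Cox4i1, through which ATP is known to inhibit the oxidase, had rat means from 8.58 in B3 to 10.90 in B10 (adjusted p = 0.0246), and every area of B3 lay below every area of B10, B9 and P91. Cox5b was lowest in B3 (10.26) and highest in B9 (11.17), with an adjusted p of 0.0229. For Atp5mc1 the mean of B9 was 12.56 and those of the other rats lay between 11.55 and 11.94 (adjusted p = 0.0242). The remaining genes called were Ndufa11, Uqcrc1, Ndufaf3, Ndufaf7 and Sdhc. B9 was the highest rat in Cox5b, Atp5mc1, Ndufa11 and Uqcrc1, and B13 the lowest in Ndufa11, Ndufaf3 and Sdhc. Over the 52 subunits, the median deviation from each gene's mean was -0.26 in B13, -0.17 in B3, -0.11 in B1, 0.037 in P91, 0.14 in B9 and 0.17 in B10. These counts depended on a few rats and arrays, and the share of all features moved with them. Without B9 1 of the 9 remained (2.28% of all features called) and without B3 also 1 (4.37%). Without B13 there were 5 (10.7%), without B10 17 (20.98%), without the dimmest array 20 (18.5%), and in means per slice 0 (2.52%). Marker lists differed by rat as well. The neuron list, by median deviation, stood at -0.49 in P91, -0.21 in B9, 0.085 in B1, 0.092 in B3, 0.45 in B13 and 0.50 in B10. Of the 9 genes called, only Ndufaf5 came near this order. Sdhc and Ndufaf3 were highest in P91 (11.27 and 9.09) and lowest in B13 (9.88 and 8.26). Cox5b, Atp5mc1, Ndufa11 and Uqcrc1 were highest in B9, Cox4i1 in B10 and Ndufaf7 in B1. The granule cell list ran from -0.64 in B10 to 0.46 in B1, the microglia list from -0.39 in B10 to 0.41 in P91, and the endothelial list from -0.80 in B10 to 0.59 in P91. Their part in the differences among rats was not tested.

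**Figure D5:**
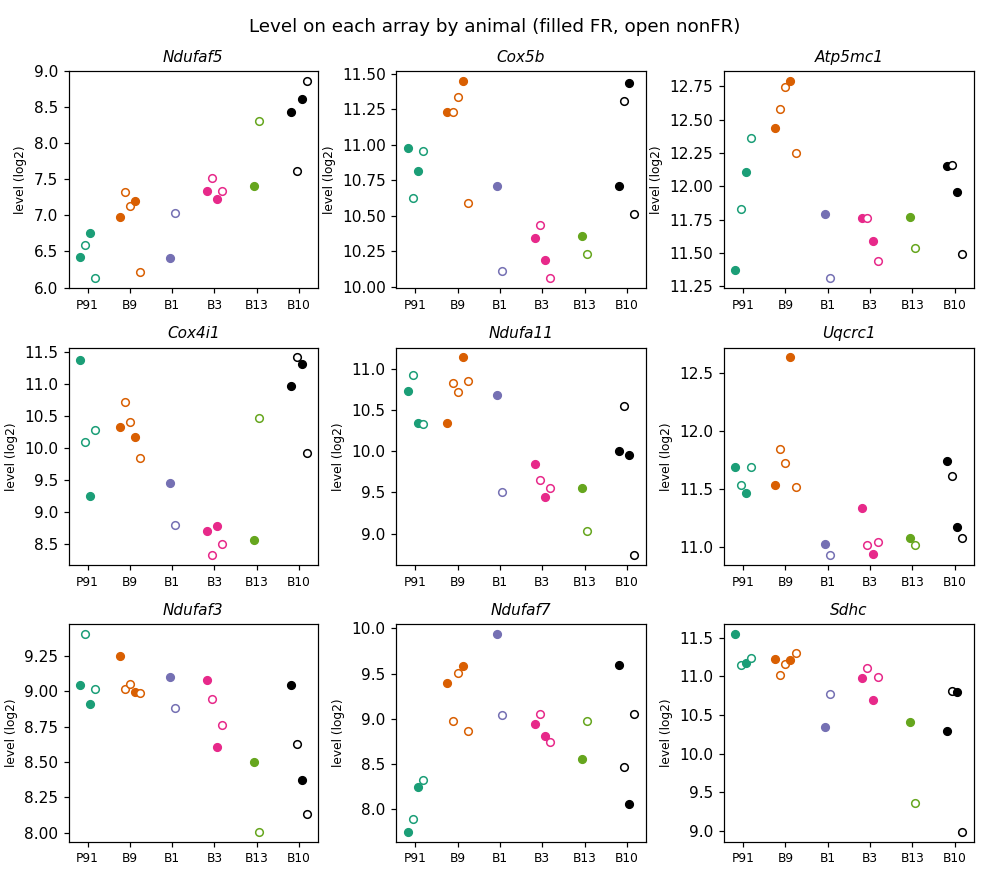
Level on each array (log2, y axis) by rat for the 9 genes that differed among rats, with FR areas filled and nonFR areas open. B10 stands highest in Ndufaf5 and Cox4i1, P91 lowest in Ndufaf5, and B9 highest in Atp5mc1.

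Whether the difference between FR and nonFR areas itself varied among rats was tested by the product of rat and area, which called 0 of the 62 genes and 0.0244% of all features. At an unadjusted p below 0.05 the counts were 0 of 62 and 4.7% of all features. Closest were Ndufa7, an accessory subunit of complex I that was lower by 2.51 in the FR area of B1 (p = 0.0584), and Uqcrb, which stood at 1.55 in P91, -1.06 in B9 and -0.97 in B10 (p = 0.082). B1 and B13 gave 1 slice each and were assumed to vary like the other rats.

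Genes that were not above background on enough arrays included most tissue isoforms. Of complex IV, the widely expressed forms Cox6a1 and Cox8a were detected on all 21 arrays, whereas the heart and muscle forms Cox6a2 and Cox8b were detected on 2 and 0, and the testis form Cox8c on 3. Of the c ring genes, Atp5mc1 and Atp5mc2 were detected on all 21 and Atp5mc3 on 2. The subunits Ndufs4, Ndufb4, Cox6c and Atp5mk were detected on 0, 1, 1 and 4 arrays, and whether these probes match the current transcripts was not checked, so nothing is said of the genes' levels. Ndufs6-ps1, a pseudogene in RefSeq, was detected on 4. None of the 71 probes found by the rule carried the symbol Cox4i2, Cox6b1, Cox7a1, Cox7a2, Ndufa4, Uqcrc2 or Atp5if1, so these genes could not be analysed.

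Neighbouring mitochondrial genes, taken as lists, gave medians between -0.016 and 0.076. Of 16 tested assembly factors and carriers outside the rule (Surf1, Bcs1l, Cycs and the like), 13 were above 0, with a median of 0.071, and the lowest p was 0.168 for Etfa, an electron carrier of fatty acid oxidation. Of 12 genes of pyruvate dehydrogenase and the citric acid cycle, 9 were above 0, with a median of 0.076. The lowest p was 0.381 for Idh3b (0.16 ± 0.18), and Mdh2, malate dehydrogenase, differed by 0.18 ± 0.28. Of 10 regulators of mitochondrial biogenesis, 7 were above 0, with a median of 0.025. Among them Tfb2m, which starts transcription of mitochondrial DNA, differed by 0.40 ± 0.10 (p = 0.00122, adjusted p = 0.9999). Nrf1 and Gabpa, which code for factors of the motifs above, differed by 0.04 ± 0.04 and -0.04 ± 0.08. Both probes were dim, which understates differences. Nrf1 was detected on 10 arrays, with means of 5.97 in FR and 5.92 in nonFR areas, and Gabpa on 19, with 6.12 and 6.15. Of 10 carriers of ADP, phosphate and proteins across the mitochondrial membranes, 4 were above 0, with a median of -0.016. None of these genes was called.

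Cell type markers had larger medians than the respiratory genes in some lists, and none passed the test. Of tested markers, 5 of 5 for oligodendrocytes were above 0 (median 0.34), 6 of 7 for microglia (median 0.17), 4 of 7 for astrocytes (median 0.074), 3 of 3 for endothelial cells (median 0.079) and 3 of 6 for interneurons (median 0.046). In contrast 0 of 4 for granule cells (median -0.28), 1 of 6 for neurons in general (median -0.10) and 1 of 3 for CA3 or mossy cells (median -0.0093) were above 0. In the second slice of B10, where the respiratory genes stood highest, the granule cell median was 0.0081, the neuron median -0.083 and the oligodendrocyte median -0.28. In the slice of B13 the granule cell median was -1.49 and the oligodendrocyte median 1.44, with a subunit median of -0.00041. In slices S1 and S3 of P91 the oligodendrocyte median was 0.56 and 0.72 (subunits 0.074 and 0.18). In those of B9 it was -0.22 and 0.21 (subunits -0.14 and 0.072), and in B1 0.45 (subunits 0.27). In slices S1 and S2 of B3 it was -0.050 and 0.073 (subunits -0.095 and -0.075), and in S1 of B10 -0.11 (subunits 0.059). The granule cell medians of these slices lay between -0.60 and 0.21. The part of cell makeup in the differences of the subunits was not tested.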

How the data were processed

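Per the file headers, the deposited table gave an average signal, taken here as intensity on a linear scale, and a detection p-value for each probe and array. The authors' processed values, deposited on a log2-like scale whose log base and background step are unknown, came from lumi 2.2 per the submitters' processing notes and served as an alternative. Of 22523 probes, 720 were 0 throughout and were dropped. Intensities were background-corrected with neqc of limma 3.58.1 (R 4.3.3; offset 16), brought to common quantiles and converted to log2. A probe was tested when its detection p was below 0.01 on 10 arrays or more, and the probe with the highest mean stood for its gene (8211 features). The offset and normalization understate differences of dim probes.

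Limma (lmFit and eBayes, two-sided, Benjamini-Hochberg over all 8211 features, threshold 0.05) compared FR with nonFR areas over 21 arrays with the rat as a block. Moderated F tests compared rats and the product of rat and area. Deviations from group means correlated by 0.36 on average between both areas of a slice (10 pairs), by 0.35 between other areas of a rat and by -0.11 between rats, so the pairing rests on shared rats. All 71 symbols were found by gene number in RefSeq (GRCr8) and 0 changed. Code was tested on simulated data. Genes and lists were chosen with earlier results of these data known. Named are the 3 genes with the lowest p in each complex (the 2 lowest for rats and product), those with one sign in 6 of 6 rats, and a fixed set of core subunits and isoforms. Others were singled out after their values were seen: Ndufaf3, Ndufaf4, Ndufaf5, Ndufaf7, Ndufs7, Sdhd, Mdh2, Nrf1, Gabpa and the complex I genes below 0. The number of arrays limits the precision.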

Additional observations from a re-analysis of the deposited data

Results flagged for a closer look

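Of 188 sets of values examined, 16 held 1 value set far from the others by Dixon's criterion, a level that chance reaches in about 1 in 20 sets. Among the arrays of B10, the nonFR area of its second slice was set apart low in Ndufs8 (7.26, the next value being 8.91), Atp5f1d (6.84, next 10.21) and Ndufs3 (10.63, next 11.09). The FR area of that slice was set apart low in Uqcrb (9.24, next 11.02) and high in Cox7b (9.67, next 8.42). Both arrays are the dimmest of the series, with mean signals of 84.2 and 101.3. Among the arrays of P91, the nonFR area of its slice S1 was low in Cox8a (10.66, next 11.13) and high in Atp5f1d (11.49, next 10.69), and that of its slice S3 was low in Atp5f1a (11.99, next 12.48). Cox5b was low in the nonFR area of slice S3 of B9 (10.59, next 11.23), and Atp5f1c was high in the nonFR area of slice S1 of B3 (12.15, next 11.90).

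Over the 10 FR arrays, Uqcrc1 was set apart high in slice S3 of B9 (12.63, next 11.74), Atp5f1b low in B1 (12.22, next 12.75) and Ndufb6 high in B1 (6.96, next 6.49). Over the 6 rat differences, Uqcrc1 was high in B9 (0.39, next 0.11), Cox6a1 high in B1 (1.04, next 0.14) and Cox4i1 low in B13 (-1.90, next -0.068).

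Rats also went opposite ways in both of their slices. The median FR minus nonFR difference over all subunits was above 0 in both slices of P91 (mean 0.13) and of B10 (mean 0.28) and below 0 in both slices of B3 (mean -0.085). For complex I this held of B10 (0.26) against B3 (-0.13), for complex II of P91 (0.39) and B10 (0.44) against B3 (-0.14), and for complex III of P91 (0.47) and B10 (0.093) against B3 (-0.091). With each gene first averaged over the slices of B3, its complex III median was 0.018, so that sign depends on the order of averaging. These differences between rats were not tested as medians, and the test for single genes called 0 of 62.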

How the results depend on the processing

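The comparison of FR with nonFR areas and the product of rat and area called 0 of the genes under every alternative run. The subunit median was 0.079 with the authors' values, 0.084 with an offset of 50, 0.10 with slices as a fixed replicate block, 0.082 with no replicate block and 0.11 over rat means, and the block changed no call. Array weights turned these genes below 0: Ndufb7 (-0.026), Ndufa12 (-0.062), Sdhb (-0.12), Uqcrh (-0.065), Atp5f1c (-0.021), Ndufs1 (-0.094), Ndufv1 (-0.020), Uqcrfs1 (-0.060), Cox4i1 (-0.031), Cox5a (-0.061) and Atp5f1a (-0.058). Without the dimmest array, Sdhb (-0.018), Ndufv1 (-0.058), Cox4i1 (-0.089) and Atp5f1a (-0.081) were below 0, and Atp5f1d (0.017), Sdhc (0.030), Uqcrh (0.020), Ndufs8 (0.11) and Ndufa12 (0.13) were smaller by over 1.5 times. Over rat means the genes below 0 were Uqcrfs1 (-0.0025), Cox4i1 (-0.064) and Cox5a (-0.0072). Leaving out each rat moved across 0 Sdha (-0.056 to 0.16), Uqcrh (-0.026 to 0.28), Uqcrfs1 (-0.049 to 0.13), Uqcrb (-0.55 to 0.13), Cox4i1 (-0.060 to 0.25), Cox5a (-0.038 to 0.16), Atp5f1a (-0.098 to 0.15) and Atp5f1b (-0.13 to 0.037). Of the 22 genes named for FR against nonFR, 8 kept their sign in all 17 alternatives. The count of genes called among rats (9) became 2 with no filter on dim probes (3.33% of all features called), 28 with array weights (31.6%), 20 without the dimmest array (18.5%), 0 in means per slice (2.52%), and 1 to 17 with a rat left out. The causes were not tested. The number of arrays and the dim probes limit what these data resolve.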
